A study of Mus musculus with 5 samples.

Results

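The nuclear genes for the subunits of the mitochondrial respiratory chain and the ATP synthase were examined in mouse embryo fibroblasts undergoing reprogramming. A gene was taken when its mouse GRCm38 annotation was protein-coding and its symbol named a subunit of complex I (Nduf), complex II (Sdh), complex III (Uqcr and Cyc1), complex IV (Cox4 to Cox8) or the ATP synthase (Atp5), or cytochrome c (Cycs). The rule used names and no measured value. It gave 86 of the 29267 genes in the tables: 35 of complex I, 4 of complex II, 9 of complex III, cytochrome c itself, 20 of complex IV and 17 of complex V, the ATP synthase. Ndufa4 and Ndufa4l2 carry complex I names but were placed with complex IV, where the Ndufa4 protein is found. The subunits that the mitochondrial genome encodes were not analysed here.

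All 5 libraries came from fibroblasts of the outbred ICR strain and were made from total RNA with the Illumina TruSeq kit. At day 4 of reprogramming 1 library came from cells expressing a Flag tag as control and 1 from cells expressing CypD (cyclophilin D, gene Ppif), a regulator of the mitochondrial permeability transition pore. At day 8 there was 1 untreated control library, 1 library from cells given mastoparan, a wasp venom peptide, and 1 from cells given paraquat, a herbicide that cycles electrons onto oxygen. The series title gives its question as the genes regulated by mitoflash, a brief burst of activity in single mitochondria.

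The labels call all 3 day-8 libraries CypD-expressing, whereas the study's design text gives CypD only to day 4. Ppif had 112 counts in the Flag library and 2629 in the CypD library at day 4. It had 90, 95 and 79 counts in the control, mastoparan and paraquat libraries, so the day-8 libraries did not carry the Ppif level of the library labelled CypD at day 4. Library totals ran from 2425950 to 3426650 counts, and a count of 0 allows up to 3 counts, or 0.869 to 1.30 CPM (counts scaled to library size). All 12 fibroblast marker genes examined had counts in every library, with Vim between 3406 and 3864 CPM. Lum had only 2 counts in paraquat, where 11 of the 12 reached 1 CPM. Each group is 1 library, and nothing marks reads copied in amplification: no difference below has a replicate check, no p-value was computed, and every interval covers counting error only.

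Electrons enter the chain from NADH at complex I or from succinate at complex II, pass through ubiquinone to complex III, travel on cytochrome c and reach oxygen at complex IV. Complexes I, III and IV pump protons, and the ATP synthase lets them return through a rotating ring and a stalk that drive catalysis in its head. Core subunits carry the redox centres or the catalytic sites, accessory subunits surround them, and in complex IV the catalytic subunits are all encoded by mitochondrial DNA. CypD is known to bind the ATP synthase at its peripheral stalk, and paraquat is known to take electrons from complex I.

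Many promoters of these genes are known targets of the factors NRF1, GABP and YY1. RefSeq promoters of GRCm38.p6, from 250 bases before to 50 after the start, were matched for 67 members. The NRF1 motif (GCGC, any base, then TGCGC), read on both strands, occurred in 17 of the 67 (25.4%) and in 5.19% of the 27025 genes in the promoter table. Among protein-coding genes of at least 50 CPM the shares were 27.0% of 63 members and 14.96% of 3537 genes. The GABP motif CCGGAAG was in 25.4% of those members and 24.6% of those genes, and the YY1 motif AAGATGGC in 14.3% and 7.07%; none of the 3 motifs contains another. Below are 5 stretches that hold the NRF1 motif, in capitals, each on the strand of its gene. They belong to the catalytic subunit and an anchor of complex II, to the complex I member that stood highest against genes of its length in the paraquat library, and to complex IV and ATP synthase members of high level.

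Sdha: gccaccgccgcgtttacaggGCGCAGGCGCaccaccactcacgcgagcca
Sdhd: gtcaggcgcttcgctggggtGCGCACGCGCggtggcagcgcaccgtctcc
Ndufa11: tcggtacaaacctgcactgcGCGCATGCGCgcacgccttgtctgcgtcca
Cox6a1: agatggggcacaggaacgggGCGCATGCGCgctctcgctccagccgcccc
Atp5h: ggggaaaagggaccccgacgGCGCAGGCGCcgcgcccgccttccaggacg

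These stretches lie upstream of the start sites at chr13:74350309-74350358 (Sdha, minus strand), chr9:50603899-50603948 (Sdhd, minus strand), chr17:56717682-56717731 (Ndufa11, plus strand), chr5:115349091-115349140 (Cox6a1, minus strand) and chr11:115420031-115420080 (Atp5h, minus strand). A match describes the letters of the window and is not a measured binding site.

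The members were abundant. In the deposited TPM, a transcript abundance that divides by length and library total, they summed to 38939 in the control library and 45222 in the paraquat library, and to 39298 to 41744 in the other 3. They took 1.89% to 2.31% of all counts. Averaged over libraries, 82 of the 86 members reached 1 CPM and 78 reached 50 CPM. Atp5b, the catalytic beta subunit of the ATP synthase (chr10:128083273-128090391), had the highest mean TPM, 2053. Cox4i1, the ubiquitous subunit 4 of complex IV, followed at 1625, and then Cox6b1 at 1178 and Cox8a at 1169. Complex III was led by the hinge protein gene Uqcrh (1125) and by Uqcr10 (757), complex I by Ndufa7 (742) and Ndufa2 (562), and complex II by the membrane anchor Sdhc (292) and the iron-sulphur subunit Sdhb (273). Levels within a complex were unequal although its subunits are built in at fixed ratios: mean TPM ran from 57.4 (Ndufa11) to 742 in complex I and from 121 (Sdha) to 292 in complex II.

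**Figure D1:**
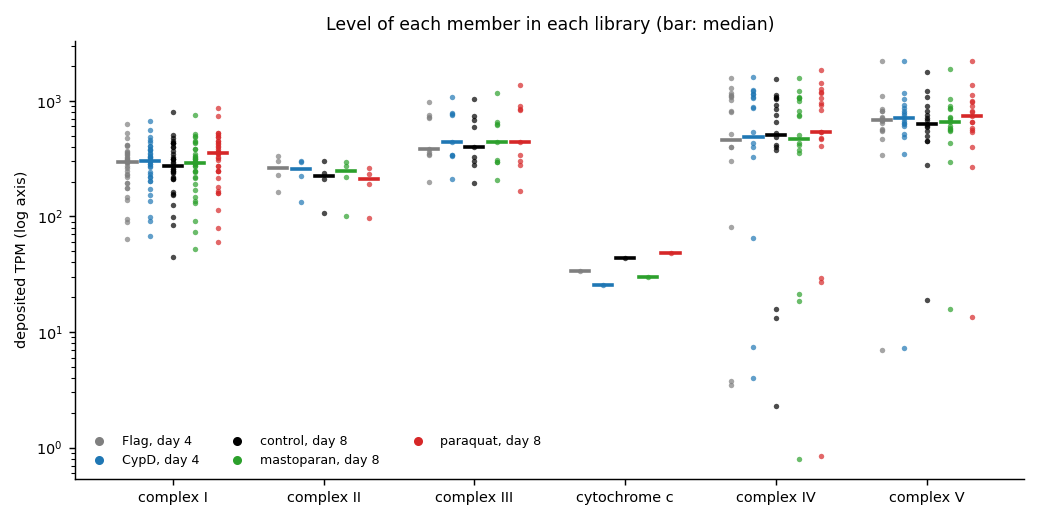
Deposited TPM of every member (log axis) by complex in the 5 libraries; each point is 1 gene, colours are libraries and bars are medians over genes, with values of 0 left off the axis. The 5 libraries cover similar ranges within each complex, and the low points of complex IV are the isoforms Cox4i2, Cox7a1 and Cox6a2.

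At the low end were isoforms known from other tissues. Cox7b2, Cox8b and Cox8c had 0 counts in all 5 libraries, and Cox6a2, the heart and skeletal muscle form of subunit 6a, had 0 in both day-4 libraries and 3, 1 and 1 in the control, mastoparan and paraquat libraries. Cytochrome c had a TPM of only 25.6 to 48.4, but 26.0% of the 49-base windows of Cycs also occur in other genes, among them Gm10053. Its reads may therefore have been split between these genes. Gm10053 had more counts than Cycs in every library, with 377 against 126 in Flag. Reads may also have been split for Atp5l (52.6% shared, mostly with Gm10221) and for Atp5g2 (36.8%, with Gm10175). For the other 83 members the shared part was under 20%.

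Members were short: the median transcript length was 660 bases (321 for Ndufc1 to 2661 for Ndufa11), whereas the median of the genes compared at day 4 was 2471. Ratios below are therefore given beside those of genes of equal length, which are all genes outside the set with at least 1 CPM and a length within 10%. Ratios are log2 of scaled CPM plus 0.5, and a gene was compared where its mean over the 2 libraries reached 1 CPM.

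At day 4 the members were slightly higher with CypD than with Flag as a body, and no abundant member differed much apart from Atp5g2. The median log2 ratio against Flag was 0.12 over 81 members and -0.02 over all 13244 genes, and 66 of 81 members lay above 0 against a background of 47% of genes. Genes of equal length were also higher, and the median of members less their equal-length median was 0.02, with 47 of 81 above (background 49.9%). By counting interval 20 members were higher (4.13%) and 1, Atp5b, lower (4.19%). Among genes of at least 50 CPM, as most members are, 306 of 4479 were higher and 266 lower. In bulk RNA a difference in the share of cells of a type and one in RNA per cell cannot be told apart.

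Only Cox4i2 was at least 1.5-fold higher (background 5.22%), from 12 against 4 counts, and its interval on the fold held no difference; 0 members were 1.5-fold lower (5.75%). Most members are abundant, and among all genes of at least 50 CPM the same shares were 0.0447% higher and 0.112% lower. The 3 highest members of at least 5 CPM were Atp5g2 (0.55), Ndufc2 (0.29) and Atp5h (0.29), and the 3 lowest were Ndufa4l2 (-0.25), the anchor Sdhc (-0.15) and Ndufa1 (-0.15). Atp5g2, one of the genes that encode the ring subunit c, had 299.9 CPM in Flag and 440 in CypD, a 1.47-fold difference (95% interval 1.34 to 1.60). Summed with Gm10175, which had 428 counts in Flag and 245 in CypD, the log2 ratio was 0.12, so most of the difference was not present in the sum of the pair. The other ring genes, Atp5g1 and Atp5g3, had ratios of 0.24 and 0.12.

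The peripheral stalk, where CypD is known to bind, had 4 of 4 members above 0: Atp5h 0.29, Atp5o (the oligomycin sensitivity subunit) 0.24, Atp5j 0.18 and Atp5f1 0.08. Also above 0 were 13 of 17 members of complex V, 66 of 81 of all members and 47% of all genes. Atp5o had 350 CPM in Flag and 413 in CypD, and Atp5h 268 and 327. Against genes of equal length the counting intervals of Atp5h and Atp5o lay above and those of Atp5j and Atp5f1 did not. Over all members 5 lay above and 7 below, where the background was 3.46% and 3.4%. Among genes of at least 50 CPM 215 of 4479 lay above and 214 below. The head subunits had ratios of -0.04 (Atp5a1) and -0.06 (Atp5b, or 0.0080 on deposited TPM). Complex II had 0 of 4 members above its equal-length median, with Sdha at 263 CPM in Flag and 240 in CypD.

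With mastoparan at day 8 the members stood close to the control library. The median log2 ratio was 0.07 over 82 members and 0.01 over all genes compared, 60 of 82 members lay above 0 (background 51.3%), and less genes of equal length the median was 0.01, with 44 of 82 above (49.9%). No member differed by 1.5-fold in either direction (background 5.29% higher and 5.7% lower of all genes, and 0.068% and 0.136% of genes of at least 50 CPM). By counting interval 18 members were higher and 1 lower, against 4.08% and 3.28% of all genes. Against genes of equal length 5 lay above and 7 below (3.3% and 3.43%). These interval shares are of genes at all levels, whereas most members are abundant and so have narrower intervals.

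The highest members of at least 5 CPM were Cox4i2 (0.47, 30 against 23 counts), Atp5mpl (0.34), a small membrane subunit of the ATP synthase, and Ndufa5 (0.30); the lowest were Atp5g2 (-0.24), Atp5s (-0.18) and Ndufa3 (-0.18). Sdhb had 181 CPM in control and 215 in mastoparan, with a ratio of 0.25 (fold 1.19, interval 1.06 to 1.34), and 0.20 less genes of equal length. Cox6b1, which joins the monomers of complex IV, had 328 and 399 CPM, and Cox5b 186 and 226. Atp5g2 summed with its near copy went from -0.24 to 0.11. Core subunits had a median of 0.06, with Ndufv1 (-0.06), Sdha (-0.05) and Ndufs1 (-0.01) as the 3 of 13 below 0.

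With paraquat at day 8 most members were higher than in the control, and the size of the difference followed transcript length. The median log2 ratio against control was 0.45 over 82 members and -0.03 over all 13666 genes. Of the members 77 lay above 0 (background 47.5%), 24 were at least 1.5-fold higher (8.22%, or 4.09% of genes of at least 50 CPM) and 0 were 1.5-fold lower (10.5%, or 1.38% of genes of at least 50 CPM). By counting interval 70 were higher (11.3%, or 24.8% of genes of at least 50 CPM) and 1, Atp5a1, lower (9.83%). The median itself was 0.35 with library totals alone and 0.18 on deposited TPM. The median of members less genes of equal length was 0.07, with 53 of 82 above it (50%). That value was 0.14 with no filter on low genes and 0.024 where the genes compared were matched on level as well. The paraquat and mastoparan ratios share the control library.

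Medians fell with length both among members and among other genes. Members under 500 bases had a median of 0.61, those of 500 to 1000 bases 0.50 and those of at least 1500 bases 0.17. Genes outside the set had medians of 0.55 under 400 bases, 0.52 at 400 to 600, 0.41 at 600 to 800 and 0.32 at 800 to 1000. At greater lengths they had 0.17 at 1000 to 1500, 0.04 at 1500 to 2000, -0.06 at 2000 to 3000 and -0.21 above 6000. The 8 members of at least 1500 bases, up to 2661, had a higher median than other genes in either bin from 1500 to 3000. Among the 8, Ndufs1, Sdha and Atp5a1 lay below 0, and the genes in these bins were not matched on level. By counting interval 7 of the 12 fibroblast markers were lower in paraquat (9.83% of all genes) and 1 was higher (11.3%). The median of the 12 was -0.22, or -0.06 less genes of equal length, with Dcn at -0.89, Postn at -0.38 and Col3a1 at -0.29 on the latter measure. On it Pdgfra (0.36, from 6 against 7 counts), Thy1 (0.17), Pdgfrb (0.12) and Col1a2 (0.05) lay above 0 and the other markers below. The part of fibroblast content, and that of RNA quality, was not tested.

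**Figure D2:**
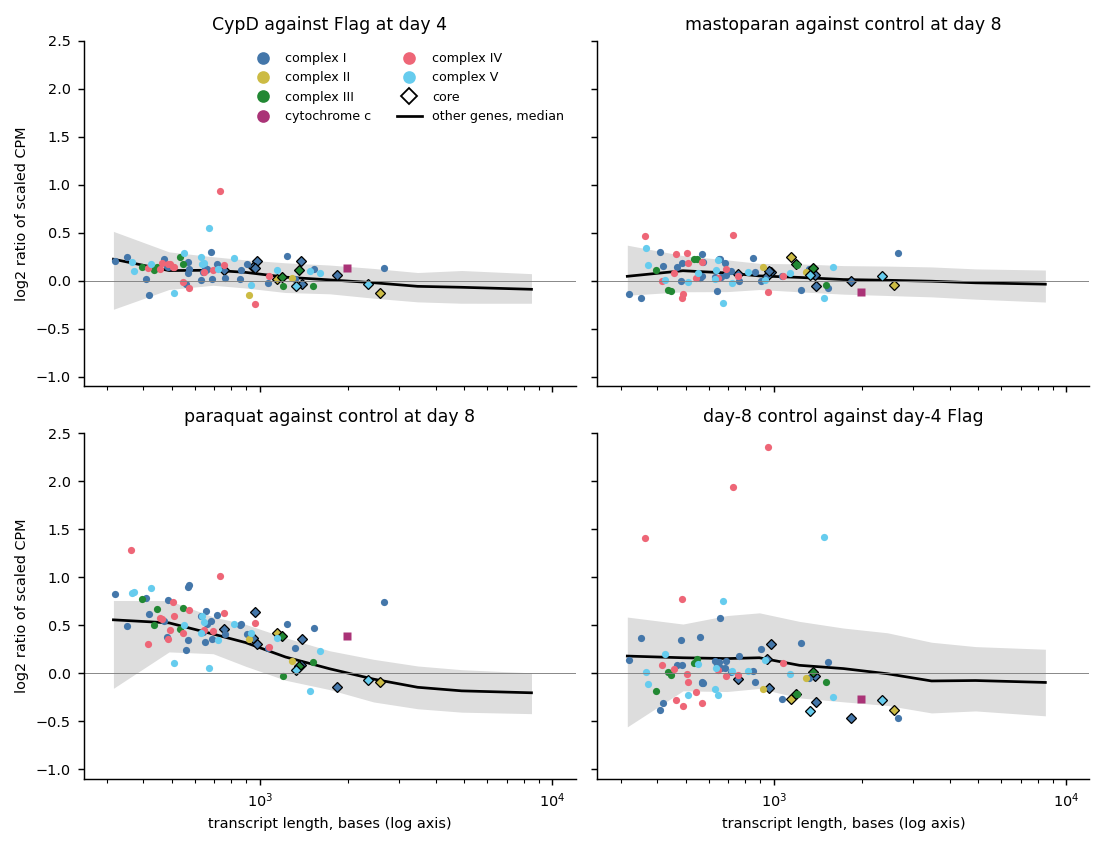
Log2 ratio of scaled CPM against transcript length (log axis) in 4 comparisons; points are members coloured by complex, diamonds are core subunits, the line is the median of other genes in bins of length and the band their quartiles. In the paraquat panel the members run down along the line of the other genes, from about 0.55 for the shortest bin, while Ndufa11 stands apart at 2661 bases and 0.74.

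The complexes came close together once length was taken into account. Medians were 0.49 for complex I, 0.24 for complex II, 0.45 for complex III, 0.54 for complex IV and 0.41 for complex V, and less genes of equal length they were 0.09, 0.02, 0.04, 0.04 and 0.07. Core subunits had a median of 0.30 and accessory subunits 0.50, and less genes of equal length 0.03 and 0.08. By counting interval against genes of equal length 23 members lay above and 7 below, where the background was 7.83% and 6.94% of all genes and 15.7% and 9.58% of genes of at least 50 CPM. Counted on deposited TPM, in which the all-gene median was -0.29, 6 members were 1.5-fold higher, and with library totals alone, all-gene median -0.13, 13 were. The share of higher among all genes past 1.5-fold was 43.9% with the scaling used, 30.3% with library totals and 16.9% on TPM. Summed over subunits, deposited TPM was higher in paraquat than in control for complex I (12211 against 10304), III (5467 against 4552), IV (13124 against 11232) and V (13591 against 11953), and lower for complex II (782 against 855).

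In complex I the highest ratios were those of accessory subunits. These are shorter than its core subunits, at a median of 652 against 977 bases, and ratios fell with length. Ndufa2, of the peripheral arm, had 185 and 201 CPM in Flag and CypD at day 4, 172 in control, 196 in mastoparan and 326 in paraquat, and 1.90-fold more in paraquat than in control (interval 1.70 to 2.13; 0.42 above genes of equal length). Ndufs6, which sits by the electron input module, had 94.3, 108, 87.6, 106 and 163 CPM in the same order, with a ratio of 0.90, and the small membrane-arm subunit Ndufc1 had 62.7, 72.4, 68.8, 62.5 and 122, with 0.82. In each of these genes the paraquat library was the highest of the 5 and the other 4 lay close together. Toward the other end were Ndufs1 (-0.14) and Ndufa6 (0.24, or -0.048 on TPM).

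Ndufa11, a membrane-arm subunit, had the largest departure from genes of its length among members of at least 50 CPM. It had 111 CPM in Flag, 122 in CypD, 80.1 in control, 97.5 in mastoparan and 134 in paraquat, so the control was the lowest and paraquat the highest. Its ratio in paraquat was 0.74 (fold 1.67, interval 1.41 to 1.98), 0.82 above genes of equal length, and it was 0.28 in mastoparan. Ndufs4, an accessory subunit of the input module, had 102 CPM in control and 142 in paraquat, 0.39 above genes of equal length.

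The redox and catalytic subunits spread widely. Ndufs8, an iron-sulphur subunit near the quinone site, had 89.2, 97.6, 79.8, 85.6 and 124 CPM in Flag, CypD, control, mastoparan and paraquat, a paraquat ratio of 0.63 and 0.34 above genes of equal length. The NADH-binding subunit Ndufv1 had a ratio of 0.35 and its partner Ndufv2 0.37. Ndufs3 (0.30) and Ndufs7 (0.45) were 0.03 and 0.07 above genes of their length. Ndufs1, the iron-sulphur subunit that takes electrons on from Ndufv1 and Ndufv2, had 93.7 CPM in control and 84.9 in paraquat, and its interval on the fold, 0.75 to 1.09, held no difference.

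In complex II the flavoprotein Sdha, which oxidises succinate, had 202 CPM in control and 188 in paraquat (-0.10), whereas its partner Sdhb had 181 and 243 (0.42, fold 1.34, interval 1.19 to 1.51). Their lengths differ: genes outside the set had medians of -0.06 at 2000 to 3000 bases, the bin of Sdha, and 0.17 at 1000 to 1500, that of Sdhb. The anchors Sdhc and Sdhd had 0.35 and 0.12, but on TPM both were lower in paraquat, at 234 against 298 and 189 against 211. On deposited TPM the level of Sdha was 37.3% of that of Sdhb in paraquat, 37.2% in mastoparan, 44.7% in control, 45.5% in CypD and 54.8% in Flag. In complex III cytochrome c1 (Cyc1) had 222 and 291 CPM (0.39), and the Rieske iron-sulphur protein Uqcrfs1 177 and 186 (0.07), or 194 and 167 on TPM. The small subunits Uqcrq (0.77), Uqcrh (0.68) and Uqcr11 (0.67) were highest, and the core proteins Uqcrc2 (-0.03) and Uqcrc1 (0.12) were among the lowest, with TPM of 303 in control and 340 in paraquat for Uqcrc2 and 323 and 276 for Uqcrc1. Uqcrc2, which is 1198 bases long, lay 0.25 below genes of equal length.

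Cytochrome c had 49.7, 54.4, 41.2, 37.9 and 54.2 CPM in Flag, CypD, control, mastoparan and paraquat, and a ratio of 0.39 in paraquat. Summed with Gm10053 that ratio was 0.19.

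In complex IV 16 of 16 compared members were higher in paraquat, from 0.27 for Cox7a2l to 1.28 for Cox7a1, where 47.5% of all genes were higher. Less genes of equal length 10 of the 16 lay above 0 and 6 below, and on TPM Cox7a2l (-0.013) and Cox7b (-0.084) were lower than in control. Cox7a1, the muscle form of subunit 7a, rested on 18 against 9 counts, and Cox4i2 on 36 against 23 (1.02). Cox6b1 followed with 328 CPM in control and 549 in paraquat (0.74, fold 1.68, interval 1.54 to 1.82). Cox7b (0.30) and the testis isoform Cox6b2 (0.36) lay below genes of equal length, by 0.24 and 0.19.

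In the ATP synthase the 2 head subunits gave ratios near 0 while the central stalk and most small membrane subunits were higher. Atp5a1 had 1107 CPM in control and 1050 in paraquat (-0.08, fold 0.95, interval 0.90 to 1.00) and Atp5b 1668 and 1707 (0.03), whereas TPM went from 708 in control to 539 in paraquat for Atp5a1 and from 1755 to 2221 for Atp5b. Genes outside the set had medians of -0.06 in the length bin of Atp5a1, 2000 to 3000 bases, and 0.17 in that of Atp5b, 1000 to 1500. The central stalk had 3 of 3 members higher (background 47.5%) and all 3 above genes of equal length (50%). It was added after its values were seen, and 77 of all 82 compared members were higher. The 3 were Atp5c1 (0.36), Atp5d (0.42) and Atp5e (0.88). Atp5e had 204, 230, 234, 235 and 432 CPM in Flag, CypD, control, mastoparan and paraquat. Small membrane subunits were also high, with Atp5k at 0.84 and Atp5mpl at 0.83, while Atp5l had 0.10, or 0.56 summed with Gm10221. The ring genes had 0.41 (Atp5g1), 0.34 (Atp5g3) and 0.05 (Atp5g2, or 0.42 summed with its near copy). Atp5s, the coupling factor B gene, had 38 against 58 counts (-0.19). On deposited TPM Atp5a1 had 24.3% of the level of Atp5b in paraquat and 36.7% to 40.3% in the other 4 libraries. Scaled CPM did not set paraquat apart in this way. In Flag, CypD, control, mastoparan and paraquat Atp5a1 had 1340, 1303, 1107, 1147 and 1050 CPM. Atp5b had 2187, 2104, 1668, 1731 and 1707 CPM in the same order.

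**Figure D3:**
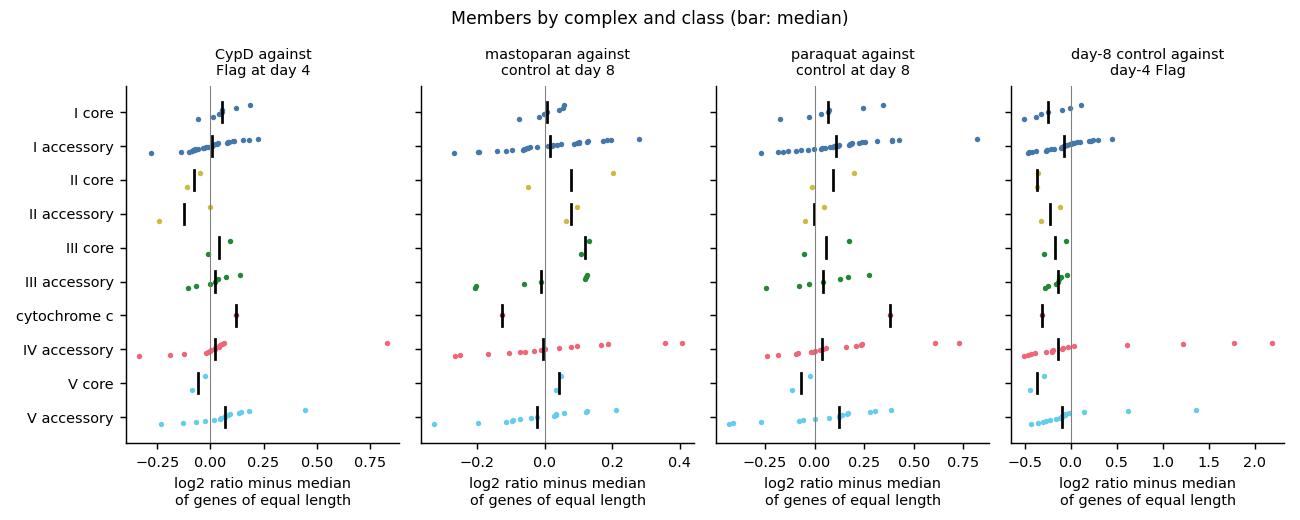
Log2 ratio of each member less the median of genes of equal length, by complex and class, in 4 comparisons; each point is 1 gene and the bar is the median of its row, and horizontal scales differ between panels. With length taken into account the rows centre near 0 in the CypD, mastoparan and paraquat panels, with row medians of core complex I of 0.05, 0.01 and 0.07, and most rows lie below 0 in the day panel.

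Mastoparan against paraquat, which leaves the control library out, gave a median of -0.41 over 82 members and 0.02 over all genes. Of the members 75 lay below 0 (background 48.2%), 13 were at least 1.5-fold lower in mastoparan (7.72%) and 0 higher (9.27%). By counting interval 67 were lower (10.4%) and 2 higher (8.89%). Less genes of equal length the median was -0.05, with 29 of 82 above (49.9%). By interval 7 lay above and 18 below (6.78% and 7.02%). The interval shares here are also of genes at all levels, whereas most members are abundant. The lowest were Ndufc1 (-0.96, 62.5 against 122 CPM), Atp5e (-0.88) and Cox7a1 (-0.82), and the highest Uqcrc2 (0.20, or -0.19 on TPM), Ndufs1 (0.14) and Atp5a1 (0.13). Among all genes past 1.5-fold the higher made up 54.6%, or 77.5% on TPM.

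Between day-4 Flag and the day-8 control the median member differed little, while several isoforms were higher and most core subunits lower. The untreated day-8 control had a median log2 ratio of 0.01 against day-4 Flag over 82 members, with 42 above 0 (background 50%). By counting interval 15 were higher (18.4%, or 22.2% of genes of at least 50 CPM) and 20 lower (18.9%, or 33.3%). At least 1.5-fold higher were 6 members (background 18.6%), and 0 were 1.5-fold lower (12.9%). The 6 were Ndufa4l2, Cox4i2, Atp5s, Cox7a1, Cox6b2 and Atp5g2. Less genes of equal length the median was -0.11, with 18 of 82 above (49.6%), and by counting interval 10 members lay above and 35 below, where the background was 17.9% and 19% of all genes and 20.7% and 34.8% of genes of at least 50 CPM. Day, handling and the labelled genotype cannot be told apart here.

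Most core subunits were lower in the day-8 control than in day-4 Flag. Their median was -0.22, and 12 of 13 lay below genes of equal length (median difference -0.29), where 60% of genes of at least 50 CPM did so. Over all 5 libraries the pattern was mixed. In every day-8 library 4 of the 13 were lower than in both day-4 libraries, and 2 were higher. The background was 28.1% lower, or 37.3% of genes of at least 50 CPM, and 28.5% higher. The other 7 overlapped, and the median log2 ratio of the day means was -0.05. Ndufs1 had 129 and 135 CPM in Flag and CypD and 93.7, 93.3 and 84.9 in control, mastoparan and paraquat. Sdha had 263 and 240, then 202, 195 and 188, and Atp5a1 1340 and 1303, then 1107, 1147 and 1050. In these 3 genes both day-4 libraries stood above all 3 day-8 libraries, with every scaling tried. Atp5b had 2187 and 2104 CPM at day 4 and 1668, 1731 and 1707 at day 8, but on deposited TPM the paraquat library (2221) was above both day-4 libraries (2191 and 2204), and Ndufs1 differed little on TPM between Flag (88.5) and control (83.9).

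**Figure D4:**
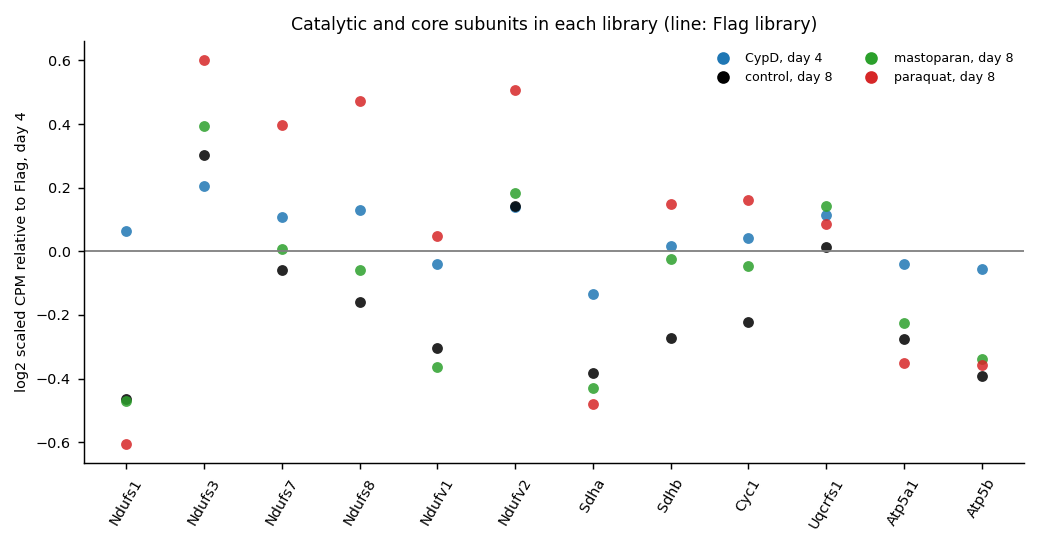
Log2 scaled CPM of the core subunits described in the text in 4 libraries relative to the day-4 Flag library (horizontal line at 0); each point is 1 library. All 3 day-8 libraries lie below the Flag and CypD libraries for Ndufs1, Sdha, Atp5a1 and Atp5b and above both for Ndufs3 and Ndufv2.

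Over the 82 members compared, 18 were higher in all 3 day-8 libraries than in both day-4 libraries (background 28.5%) and 6 were lower in all 3 (28.1%, or 37.3% of genes of at least 50 CPM). With 6 scalings 15 members stayed among the higher and 3 among the lower; on TPM the counts were 17 and 18, where the background was 20.4% and 32.9%. Complex I gave 10 of the 18 from its 35 members, near the background of 28.5%. Ndufv3, an accessory subunit of the input module, was among the 10. It had 89.2 and 96.1 CPM at day 4 and 133, 155 and 208 at day 8. Ndufs3 and Ndufv2 were the core subunits on that side, although Ndufv2 had 190.5 CPM in CypD and 190.7 in control and was not there under every scaling. Complexes II and III, with only 4 and 9 members, gave none of the 18.

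Isoforms of complex IV held the highest ratios. Ndufa4l2 (chr10:127514967-127517154), a relative of Ndufa4 known to be induced in hypoxic cells, had 124 counts in Flag, 142 in CypD, 780 in control, 662 in mastoparan and 841 in paraquat. All 3 day-8 libraries were far above both day-4 libraries, and control was 5.17-fold above Flag (interval 4.27 to 6.30; log2 ratio 2.36). Ndufa4 itself had 333 and 375 CPM at day 4 and 262, 238 and 358 at day 8, a ratio of -0.35 in control. On deposited TPM Ndufa4l2 made up 6.66% and 5.07% of the pair in Flag and CypD and 31.9%, 32.2% and 33.1% in control, mastoparan and paraquat.

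Other isoforms were also higher at day 8. Cox4i2, known from lung and hypoxic cells, had 4 and 12 counts at day 4 and 23, 30 and 36 at day 8, and stayed under 1.5% of the subunit 4 pair. Cox7a1 had 2 and 3 counts, then 9, 12 and 18. Cox6b2 had a TPM of 300.3 and 328, then 525, 431 and 539, and its share of the 6b pair on TPM was 21.8% in Flag, 22.2% in CypD, 33.7% in control, 26.2% in mastoparan and 27.6% in paraquat. Their common forms, Cox4i1, Cox7a2 and Cox6b1, were highest in the paraquat library. In Flag, CypD, control, mastoparan and paraquat Cox4i1 had 636, 679, 650, 663 and 890 CPM and Cox7a2 had 187, 209, 185, 191 and 285. Cox6b1 had 329.5, 363, 328, 399 and 549 CPM. Cox8a, whose isoforms Cox8b and Cox8c had 0 counts, had 428 CPM in Flag and 374 in control.

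**Figure D5:**
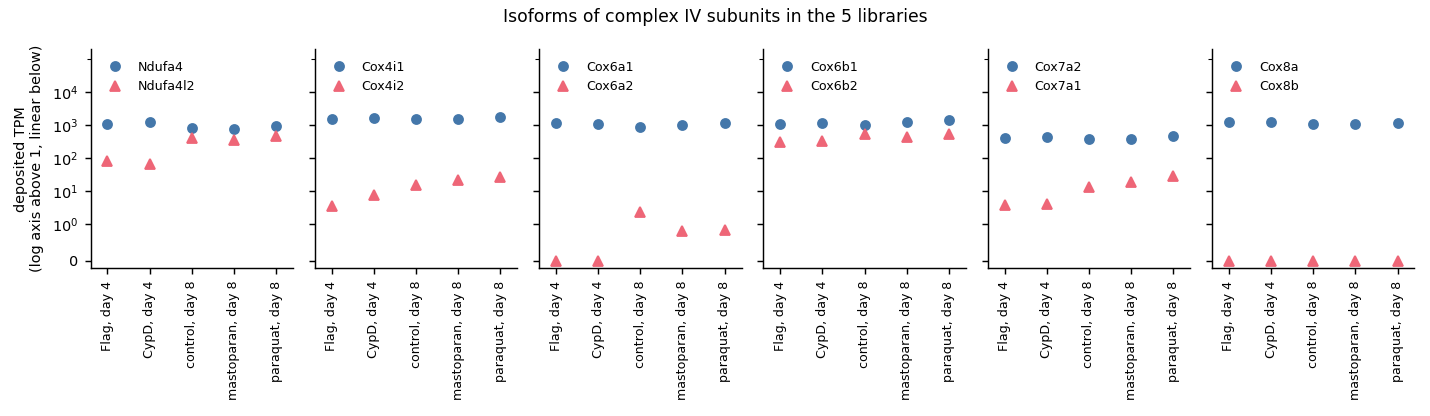
Deposited TPM (log axis above 1, linear below) of the common form (circles) and the other form (triangles) of 6 complex IV subunits in the 5 libraries. Ndufa4l2 lies at 80.2 and 65.1 at day 4 and at 354 to 471 at day 8, while Ndufa4 stays between 745 and 1221.

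Marker levels also differed between the days. The 6 epithelial markers summed to 190 and 207 CPM at day 4 and 622 to 707 at day 8, with Cldn6 at 0 in both day-4 libraries. The 10 striated muscle markers summed to 38 counts in each day-4 library and to 115 to 142 at day 8, with Ckm, Myog, Myod1 and Myl1 at 0 in every library. Tnni1 made up most of that difference, with 26 counts in each day-4 library and 132, 130 and 105 in control, mastoparan and paraquat. Acta1 had 7 or 8 counts in every library. The 12 fibroblast markers summed to 7003 to 7526 in all 5, lowest in paraquat, and the 6 pluripotency markers to 3.76 to 10.4. The part of these cells in the isoform levels was not tested.

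Atp5s had 17 and 25 counts at day 4 and 58, 47 and 38 at day 8, a log2 ratio of 1.42 in control against Flag (fold 2.80, interval 1.61 to 5.14). Atp5g2 had a ratio of 0.75, but 0.17 summed with Gm10175. The lowest members of the day comparison were Ndufa11 (-0.47), Ndufs1 (-0.46) and Atp5b (-0.39). In complex II all 4 members were below 0, with Sdhb at -0.27 and Sdhc and Sdhd at -0.16 and -0.05, and in complex III Cyc1 had -0.22 and Uqcrfs1 0.01.

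Genes that serve the chain without matching the name rule were compared by lists. Among all genes compared in paraquat 47.5% were above 0, 8.22% at least 1.5-fold higher and 10.5% lower, and each list's median is given beside its value less genes of equal length. In paraquat the 5 compared regulators and subunits outside the rule were all higher (median 0.47 and 0.08), with 2 of 5 past 1.5-fold: Usmg5 (0.66), an ATP synthase membrane subunit, and Atpif1 (0.60), the inhibitor of its reverse reaction. Of 21 assembly factors of complex IV 15 were above 0 (median 0.33 and 0.04), 5 at least 1.5-fold higher and 2 lower; the lower were Sco2 (1 against 30 counts, with 73.2% of its windows shared with another gene) and Taco1 (11 against 31 counts). Of 15 factors of complex I 12 were above 0 (median 0.15 and 0.07), with Ndufaf2 at 0.66 and Foxred1 at -0.58. The 4 of complex II had a median of 0.23 (0.24 less genes of equal length), and the 6 of complex III 0.41 (0.14) with Uqcc2 at 0.71. The 4 listed for the ATP synthase were Atpaf1, Atpaf2, Tmem242 and Dmac2, with a median of -0.03 (-0.18). Counting Dmac2 (0.15) there and Tmem70 (-0.05) under complex I followed the lists used, and this small list's median depends on that choice.

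Coenzyme Q synthesis had 9 of 13 genes above 0 in paraquat (median 0.16 and 0.08, Pdss1 0.74), and other enzymes that feed ubiquinone 4 of 7 (median 0.07 and 0.06), with Etfb at 0.61 and Etfdh at -0.37. Transcription regulators had 6 of 8 below 0 (median -0.28 and -0.18), with Gabpa at -0.57 and Gabpb1 at -0.50. At day 8 against Flag the regulator Higd1a, a complex IV partner known from hypoxia, had 553 against 249 counts (0.86), Sdhaf4 105 against 38 (1.16), Cmc1 185 against 73 (1.05), Ndufaf4 57 against 93 (-0.97) and Pprc1 171 against 229 (-0.70).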

How the data were processed

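Messenger RNA was sequenced from 5 libraries, 1 per group. The members and gene lists were chosen with earlier results of these data known. Per the file headers, the deposited tables give each gene an expected count, a TPM, an FPKM and lengths. The authors aligned with Bowtie2 2.2.5 to mm10, per the submitters' processing notes; the counting program is not given in the sources used here. Deposited FPKM values were not used. Symbols came from the GRCm38 annotation (28756 of 29267 genes).

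Deposited expected counts were rounded to whole numbers and scaled with TMM factors (edgeR 4.0.16 in R 4.3.3, 0.951 to 1.02). Log2 ratios used a pseudocount of 0.5 CPM and genes averaging 1 CPM or more in the libraries compared. Exact Clopper-Pearson 95% intervals of the fold came from the counts. The deposited TPM was used for levels between genes and as an alternative. Each member was set against the median of at least 15 other compared genes of length within 10%. Counts were also simulated for the 29267 genes, with 200 changed and Poisson counting error alone. There the intervals held the true fold in 93% to 96.5% of changed genes over the 5 comparisons. The intervals assume that same error, so these shares check the calculation only. They do not cover reads split between near copies or copied in amplification. Named genes were the core members, the highest and lowest 3 per complex in paraquat and per comparison (at least 5 CPM), the leading 2 of each complex by TPM, tissue isoforms and up to 2 genes per list; Ndufs4, Ndufv3, Cox5b and the central and peripheral stalks were added after their values were seen. Of the members this rule names, 1 is counted in the totals but not reported here. Alternatives covered scaling, filter, pseudocount, near copies, length window, level and GC content.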

Additional observations from a re-analysis of the deposited data

How the results depend on the processing

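No paired analysis was possible because each group is 1 library and the labels give no shared replicate numbers, so no library could be left out of a group either. The medians of the members kept their direction under every alternative run for the CypD, mastoparan, paraquat and mastoparan-against-paraquat comparisons. The median in CypD was 0.14 with upper-quartile factors, 0.14 without the 20 most abundant genes and 0.070 on TPM; that in mastoparan was 0.0037 on TPM. In paraquat it was 0.35 with library totals alone and 0.18 on TPM, where members less all genes moved only from 0.48 to 0.46, and mastoparan against paraquat was -0.20 on TPM. The day median, 0.01, was -0.043 on TPM. Less genes of equal length, the paraquat median was 0.14 with no filter and 0.024 with genes of equal length and a level within 2-fold, and the day median -0.054 with that level window. Members lower in all 3 day-8 libraries numbered 18 on TPM against 6. In paraquat 13 members were 1.5-fold higher with library totals and 6 on TPM against 24, and mastoparan against paraquat had 7 and 4 lower against 13. Single members were recomputed under each scaling, an alternative chosen after seeing the data. On TPM 14 of 81 members had the opposite sign in CypD, 17 of 82 in mastoparan, 13 in paraquat, 18 in mastoparan against paraquat and 11 between the days. Of those whose counting interval held no 1, the ratio on TPM was 0.0080 (Atp5b) and -0.0014 (Atp5j2) in CypD and -0.027 (Uqcrc2) in mastoparan. In paraquat it was -0.35 (Sdhc), -0.21 (Ndufa10), -0.084 (Cox7b), -0.059 (Atp5f1), -0.048 (Ndufa6), -0.021 (Ndufa9) and -0.013 (Cox7a2l); Sdhd, Uqcrfs1, Uqcrc1, Uqcrc2, Atp5g2 and Atp5l also changed sign. In mastoparan against paraquat it was 0.34 (Sdhc), 0.18 (Ndufa10), 0.10 (Uqcrc1), 0.062 (Sdhb), 0.027 (Cyc1), 0.024 (Atp5j), 0.023 (Ndufa6), 0.0043 (Cox7a2l), 0.0015 (Uqcrb) and -0.19 (Uqcrc2). The cause was not tested. Depth limits Cox4i2, Cox7a1, Cox6a2 and Atp5s, which had at most 58 counts in any library.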
